A study of Mus musculus with 6 samples.

Results

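The miR-200 family, miR-203 and miR-205 are microRNAs (miRNAs) best known from epithelia, and here they were followed in the heart muscle (myocardium) of mice, sampled either 0 h or 6 d after death. Members were taken by name: every row beginning mmu-miR-200a, mmu-miR-200b, mmu-miR-200c, mmu-miR-141, mmu-miR-429, mmu-miR-203 or mmu-miR-205, which gave 11 of the 984 mature miRNAs in the files. None of these 11 was a 5p arm of miR-200c, miR-429 or miR-203. Small RNA was sequenced from 3 libraries labelled 0 h of post-mortem interval, the time between death and sampling, and from 3 labelled 6 d, all from mouse myocardial tissue. No strain, age, sex or treatment other than the interval is given in the sources used here, and by its title the series concerns the estimation of that interval from miRNAs. Whether the 3 libraries of an interval are 3 animals is not said in the labels. The p-values therefore measure the spread among these libraries alone, which may be technical.

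A miRNA is cut from a hairpin whose 5p and 3p arms can each be loaded into an Argonaute protein. The loaded strand then finds messenger RNAs mainly through its seed, bases 2 to 8. The miR-200 family is made from a pair of gene clusters and is known for holding cells in the epithelial state by repressing Zeb1 and Zeb2, the transcription factors that in turn repress both clusters. miR-205 acts on the same factors and is abundant in stratified and glandular epithelia. miR-203 is the keratinocyte miRNA that restrains the stem cell factor p63. Heart muscle cells are not known as a main source of any of them.

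The mature sequences are shown because the family is divided in 2 ways, by cluster and by seed. They come from RefSeq with the build GRCm38.p6, and 11 of the 11 members matched by name. Each is written 5′ to 3′ with the seed in capitals.
mmu-miR-200b-3p: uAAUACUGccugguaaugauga
mmu-miR-200a-3p: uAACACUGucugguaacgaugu
mmu-miR-429-3p: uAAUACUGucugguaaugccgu
mmu-miR-200c-3p: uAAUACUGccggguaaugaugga
mmu-miR-141-3p: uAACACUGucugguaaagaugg
mmu-miR-205-5p: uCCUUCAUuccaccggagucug
mmu-miR-203-3p: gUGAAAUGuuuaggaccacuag
The first 3 come from 1 cluster and the next 2 from the other. The seed AAUACUG is shared by miR-200b-3p, miR-429-3p and miR-200c-3p, and AACACUG by miR-200a-3p and miR-141-3p, so each seed occurs in both clusters. In the RefSeq table no other mature mouse miRNA has either seed. Counting positions from 1 at the 5′ end, miR-200b-3p and miR-200a-3p differ in the seed by U4C, as do miR-200c-3p and miR-141-3p. Over 22 bases miR-200b-3p and miR-200c-3p differ only at U11G and A22G, and miR-200a-3p and miR-141-3p only at C17A and U22G. Such close copies could share reads, and how the authors' counting treated them is not given in the sources used here.

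In RefSeq's GRCm38.p6 annotation the genes Mir200b (chr4:156055681-156055750), Mir200a (chr4:156054896-156054985) and Mir429 (chr4:156053905-156053987) lie on the minus strand within 1846 bases. In GENCODE M21, which uses the same build, all 3 lie in introns of the protein-coding gene Ttll10, and Mir429 also overlaps an exon of the non-coding transcript Gm13648. Mir200c (chr6:124718322-124718390) and Mir141 (chr6:124717914-124717985) lie on the minus strand within 477 bases, in an intron of the non-coding gene Gm15884, and Mir141 also overlaps an exon of Gm29008. Mir205 (chr1:193507463-193507530, minus strand) overlaps an exon of the lincRNA 4631405K08Rik. Mir203 (chr12:112130880-112130955, plus strand) lies in no other GENCODE gene, but RefSeq places the hairpin of miR-203b on the opposite strand there. Whether the counting used strand is not stated, and without it reads of these overlapping genes cannot be told apart. The deposited files name no build, so these positions describe the genes and not the authors' alignment.

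The 0 h libraries held 4468547 to 7906557 miRNA reads and the 6 d libraries 617069 to 1889594. Levels are given as normalised CPM, reads per 1000000 after the authors' scaling of each library except 0 h replicate 1, whose scale factor was derived here. In these units 1 read was worth 0.154 to 0.243 at 0 h and 0.636 to 1.32 at 6 d. Over the 470 miRNAs with a level of at least 1 in at least 3 libraries, 178 (37.9%) passed a limma adjusted p under 0.05, 75 (16.0%) higher and 103 (21.9%) lower at 6 d. With library totals alone these were 83 higher and 40 lower, and with RLE size factors 90 and 84. Over the 470 the log2 fold change had a median of -0.33, or of 0.02 with library totals alone and of -0.17 with RLE size factors. Every fold change is relative to the other miRNAs of a library, on the log2(normalised CPM + 1) scale, where changes of low miRNAs come out too small. In bulk tissue, a change in the number of cells of a type and a change in RNA per cell cannot be told apart. miR-1a-3p, the miRNA of heart and skeletal muscle, ranked first by mean level at both intervals, with 251640 to 487820 CPM at 0 h and 110060 to 532710 at 6 d.

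Of the 11 members 9 were tested, 8 were called higher at 6 d (against 16.0% of all tested miRNAs higher and 37.9% in either direction) and miR-203-3p was not called. By edgeR 7 of the 8 members it tested were called higher, against 22.3% of 363 miRNAs higher and 43.0% in either direction. In 8 of the 9 all 6 d libraries lay above all 0 h libraries, which held for 19.8% of the 470, and 50.6% did not overlap in either direction. A called log2 fold change of at least 4 was found for 11 of the 470 (2.34%), and 5 of these were members. miR-429-3p, miR-200b-5p and miR-205-5p passed the filter on low values only through their 6 d libraries, so their calls and these counts carry no weight of their own. The other 6 tested members had a level of at least 1 in each 0 h library. miR-141-5p and miR-205-3p did not pass the filter.

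**Figure D1:**
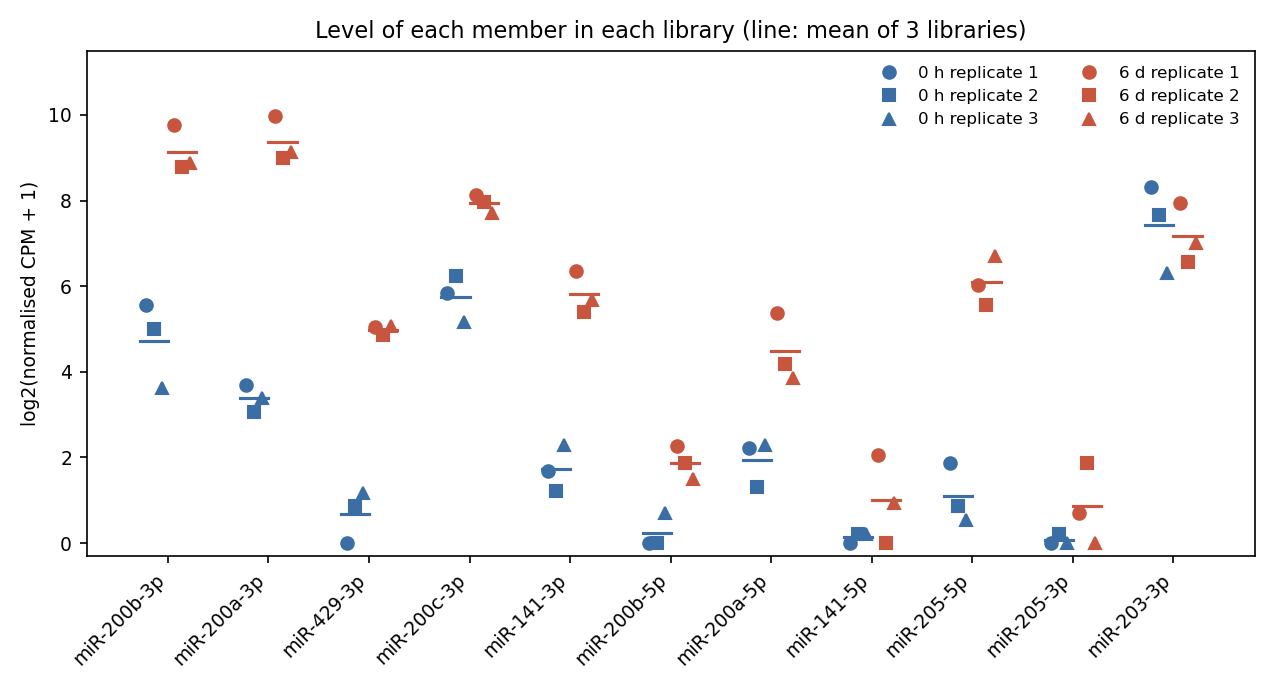
Level of the 11 members in each library as log2(normalised CPM + 1), with 0 h libraries in blue, 6 d libraries in red, the replicate given by the symbol and the group mean by a line. The 6 d points of the 5 miR-200 family 3p arms and of miR-205-5p lie above all 0 h points, and those of miR-203-3p lie among them.

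The miR-200b/miR-200a/miR-429 cluster held the member with the largest log2 fold change of the 9 tested. mmu-miR-200a-3p had 11.9, 7.32 and 9.42 CPM in 0 h replicates 1, 2 and 3 (49, 44 and 61 reads) and 1012, 511 and 563 CPM in 6 d replicates 1, 2 and 3 (1589, 386 and 624 reads). The groups were far apart, and 6 d replicate 1 was the highest. Its log2 fold change was 6.00 ± 0.37 (SE, n = 3 each, limma adjusted p = 5.4e-06), 6.33 above the median of all tested miRNAs and the fourth largest rise of the 470. Its cluster neighbour mmu-miR-200b-3p had 46.2, 31.1 and 11.3 CPM at 0 h and 866, 439.5 and 470.1 at 6 d. Its 0 h libraries were more uneven than those of miR-200a-3p, with replicate 3 the lowest, and the groups did not overlap. Between the intervals miR-200b-3p rose by 4.41 ± 0.51 (log2, SE, n = 3 each, limma adjusted p = 0.00023). mmu-miR-429-3p, from the last hairpin of the cluster, was near the limit of detection at 0 h with 0, 5 and 8 reads. At 6 d it had 31.8, 27.8 and 32.5 CPM from 50, 21 and 36 reads. Its 6 d levels were the most even of the family (30.7 ± 2.53 CPM, SD, n = 3). With so few reads counting error is part of this spread, and the evenness was not tested. Its log2 fold change of 4.31 ± 0.44 (SE, n = 3 each, limma adjusted p = 0.00010) ranged from 2.89 with a pseudocount of 4 to 5.58 with DESeq2. miR-429-3p passed the filter only through its 6 d libraries, so its call carries no weight of its own.

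In the other cluster, mmu-miR-200c-3p was the most abundant family member at 0 h and had the smallest log2 fold change of the 5 family 3p arms. It had 56.2, 74.5 and 35.1 CPM at 0 h and 278, 249 and 209 at 6 d, and all 6 d libraries lay above all 0 h libraries. It rose by 2.18 ± 0.35 (log2, SE, n = 3 each, limma adjusted p = 0.0014), with a 95% interval of 1.39 to 2.98, which does not meet the interval of miR-200a-3p (5.17 to 6.82) or of miR-141-3p (3.09 to 5.09). mmu-miR-141-3p, from the hairpin beside it, had 2.19, 1.33 and 3.86 CPM at 0 h (9, 8 and 25 reads) and 81.5, 41.0 and 50.5 at 6 d (128, 31 and 56 reads). Here too the groups did not overlap. This miRNA rose by 4.09 ± 0.45 (log2, SE, n = 3 each, limma adjusted p = 0.00017).

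**Figure D2:**
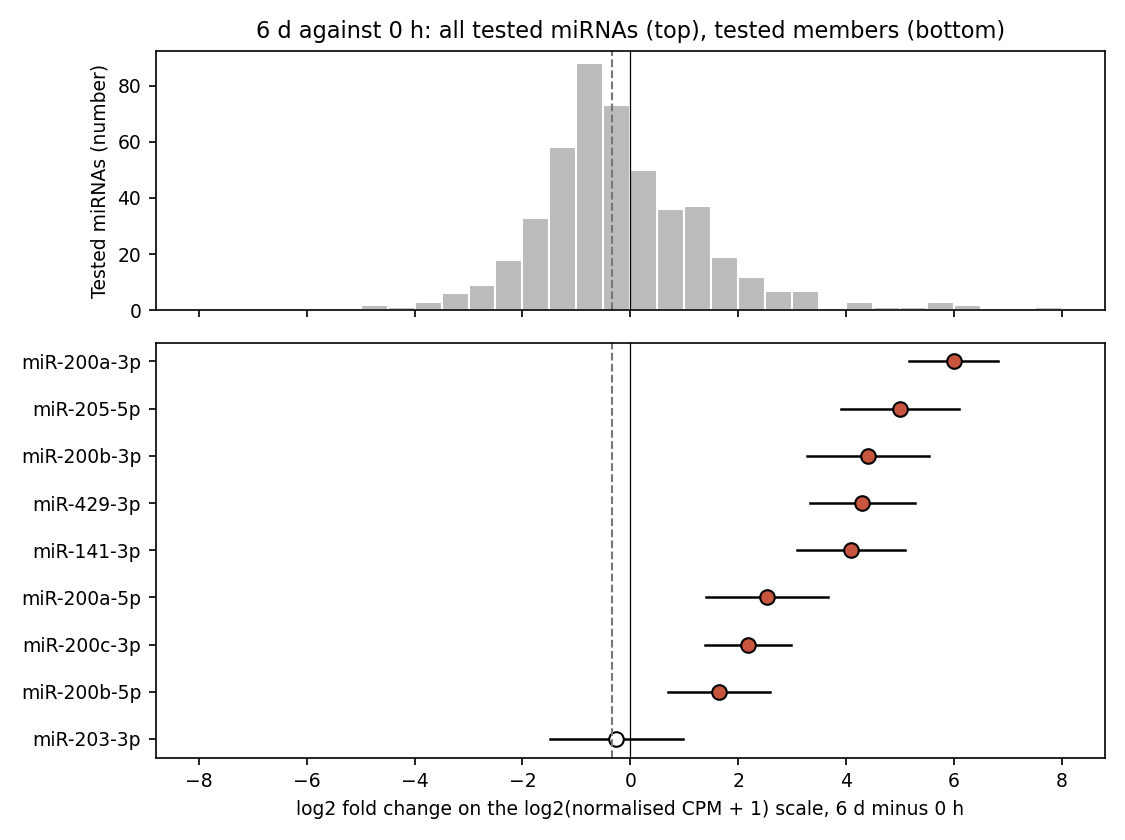
Log2 fold changes of 6 d against 0 h, as a histogram of all 470 tested miRNAs (top) and for the 9 tested members with their 95% intervals (bottom, filled where the limma adjusted p is under 0.05). The dashed line is the median of all tested miRNAs, -0.33. The members spread from -0.26 for miR-203-3p to 6.00 for miR-200a-3p.

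The balance between the clusters lay apart in the 2 intervals. Each cluster was summed over both arms of miR-200b, miR-200a and miR-141 and over the 3p arm alone of miR-429 and miR-200c. Reads of the miR-200b/miR-200a/miR-429 cluster were 1.06, 0.536 and 0.676 times those of the miR-200c/miR-141 cluster in 0 h replicates 1, 2 and 3. At 6 d they were 5.40, 3.44 and 4.15 times as many. As a share of both clusters this was 51.4%, 34.9% and 40.3% at 0 h and 84.4%, 77.5% and 80.6% at 6 d. The exact (Clopper-Pearson) 95% intervals ran from 31.4% to 55.9% over the 0 h libraries and from 74.7% to 85.5% over the 6 d libraries, and they cover counting error only. On the log2 scale the ratio averaged -0.46 ± 0.50 at 0 h and 2.09 ± 0.33 in the 6 d libraries (SD, n = 3 each), a difference of 2.55 with groups that did not overlap. The exact two-sided permutation p was 0.1, below which 3 against 3 libraries cannot go, and 0.125 after Benjamini-Hochberg adjustment over the 5 ratios tested. Because such a ratio is taken within a library, it does not depend on the scaling.

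Within each cluster the neighbours were then set against each other. There were 0.262, 0.239 and 0.838 reads of miR-200a-3p for each read of miR-200b-3p at 0 h, and 1.17, 1.16 and 1.2 at 6 d (1 read added to each). The 6 d libraries were nearly identical in this ratio although their levels of miR-200a-3p ranged from 511 to 1012 CPM. At 0 h replicate 3 stood apart: miR-200a-3p made up 45.5% of the pair's reads there (95% exact interval 36.9% to 54.3%), which overlaps the 6 d intervals, against 20.5% and 19.0% in the other two. The mean log2 ratio differed by 1.65 (exact permutation p = 0.1, adjusted p = 0.125, n = 3 each), and by 2.23 without 0 h replicate 3. For each read of miR-200c-3p there were 0.0431, 0.0200 and 0.114 reads of miR-141-3p at 0 h and 0.295, 0.169 and 0.245 at 6 d. This log2 ratio differed by 2.32 (exact permutation p = 0.1, adjusted p = 0.125, n = 3 each), and its groups did not overlap. The share of miR-141-3p in this pair's reads had overlapping exact 95% intervals in 0 h replicate 3 (6.52% to 14.3%) and 6 d replicate 2 (9.82% to 19.5%). In both clusters the 6 d libraries held more reads of the neighbour with the seed AACACUG for each read of the one with AAUACUG than any 0 h library did. For 0 h replicate 3 this difference was within counting error of at least 1 6 d library in each cluster. The ratio of miR-429-3p to miR-200b-3p, which share the seed AAUACUG, overlapped between the intervals (exact permutation p = 0.6, adjusted p = 0.6, n = 3 each), with a log2 difference of 1.04 that became -0.15 without 0 h replicate 1, where miR-429-3p had no read.

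Grouped by seed, reads with AAUACUG outnumbered those with AACACUG 7.26, 12.3 and 3.58 times in 0 h replicates 1, 2 and 3. At 6 d the 2 groups were nearly level, with ratios of 1.08, 1.30 and 1.16. The log2 ratio averaged 2.77 ± 0.89 and 0.23 ± 0.14 (SD, n = 3 each, exact permutation p = 0.1, adjusted p = 0.125). Within the miR-200b/miR-200a/miR-429 cluster alone the difference was -1.65. In composition, miR-200c-3p made up 56.9% ± 8.28 of the family's 3p reads in the 0 h libraries and 15.9% ± 3.70 in the 6 d libraries (SD, n = 3 each), and miR-200a-3p 10.7% ± 4.58 and 42.5% ± 2.15. For both, the groups did not overlap. The share of miR-200b-3p was 28.4% ± 10.6 at 0 h and 36.1% ± 1.85 at 6 d, with overlapping groups. These shares rest on 394 to 692 family 3p reads per library at 0 h and 958 to 3564 at 6 d.

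**Figure D3:**
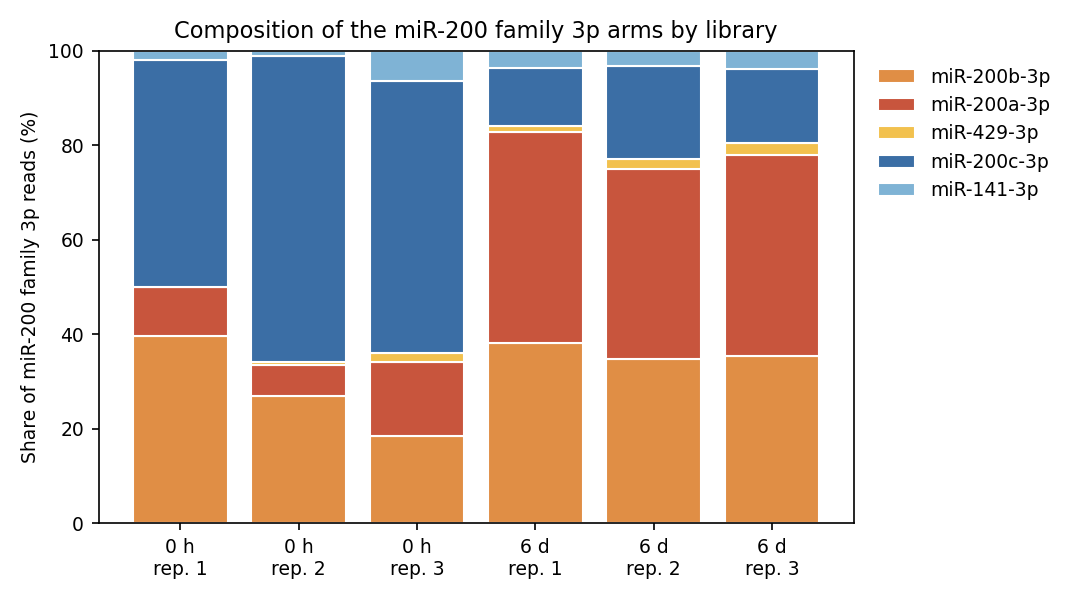
Share of each 3p arm in the reads of the 5 miR-200 family 3p arms, in percent, for each library. miR-200c-3p (dark blue) was the largest part of each 0 h library, at 48.2% to 64.7%, and miR-200a-3p (red) the largest part of each 6 d library, at 40.3% to 44.6%.

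The arms of 1 hairpin start from the same transcript, so their ratio shows how the mature strands of that transcript differ. The hairpins of miR-200a and miR-200b are shown with their 5p and 3p arms in capitals.
Mir200a: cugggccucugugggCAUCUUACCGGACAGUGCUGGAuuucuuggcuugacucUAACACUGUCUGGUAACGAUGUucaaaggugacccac
Mir200b: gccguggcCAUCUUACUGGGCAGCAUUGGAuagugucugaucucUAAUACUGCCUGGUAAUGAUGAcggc
The 3p arm is the usual guide strand of the family, and the 5p arms of these hairpins share the seed AUCUUAC. mmu-miR-200a-5p had 3.65, 1.5 and 3.86 CPM at 0 h (15, 9 and 25 reads) and 40.7, 17.2 and 13.5 at 6 d (64, 13 and 15 reads). The rise was 2.54 ± 0.51 (log2, SE, n = 3 each, limma adjusted p = 0.0041). The 5p arm made up 23.4%, 17.0% and 29.1% of the miR-200a reads at 0 h, with exact 95% intervals from 8.07% to 39.9%. At 6 d the share was 3.87%, 3.26% and 2.35%, with intervals from 1.32% to 5.51%, so the groups lay well apart. Pooled over libraries there were 3.14 reads of the 3p arm for each 5p read at 0 h and 28.2 at 6 d. With 1 read added to each arm, the log2 of 5p over 3p reads fell by 3.21 ± 0.45 (SE, n = 3 each, limma adjusted p = 0.0026). This ratio was called for 45 of the 116 precursors with both arms tested (38.8%), of which 22 (19.0% of 116) shifted toward the 3p arm as here, and it did not overlap between the intervals for 56.9%.

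For miR-200b the 5p arm was scarce, with 0, 0 and 4 reads of mmu-miR-200b-5p in the 0 h libraries against 6, 2 and 2. All 4 reads at 0 h were in replicate 3. The fitted rise of miR-200b-5p was 1.64 ± 0.42 (log2, SE, n = 3 each, limma adjusted p = 0.014), a call lost when 0 h replicate 1 or replicate 2 was left out (adjusted p = 0.074 and 0.071, over alternatives with adjusted p from 0.012 to 0.074). miR-200b-5p passed the filter only through its 6 d libraries, so its call carries no weight of its own. Pooled over libraries, its level at 6 d was 12.1 times that at 0 h (exact 95% interval 3.48 to 52.8). This interval covers counting error only, leaves out the spread among libraries and is no test. For miR-200b the log2 of 5p over 3p reads differed by -0.94 ± 0.99 (SE, n = 3 each, limma adjusted p = 0.49), with a 95% interval of -3.24 to 1.36, and by 0.29 without 0 h replicate 3. Whether the arms of miR-200a and miR-200b changed differently was not tested. miR-141-5p had 0, 1 and 1 reads against 5, 0 and 1, and its groups overlapped. Its pooled ratio was 14.5 (95% exact interval 2.59 to 147, counting error only).

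**Figure D4:**
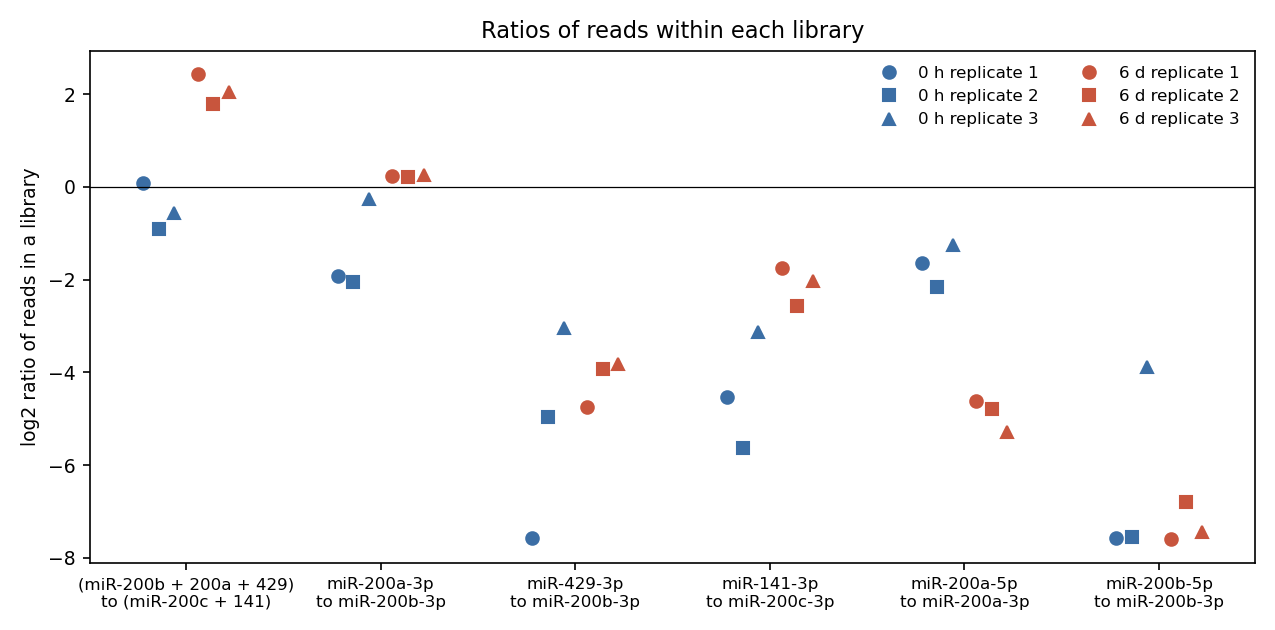
Log2 ratios of reads within each library, with 0 h in blue, 6 d in red and the replicate given by the symbol. The ratio of the clusters and that of miR-141-3p to miR-200c-3p lie higher in all 6 d libraries and that of the 5p to the 3p arm of miR-200a lies lower, while 0 h replicate 3 sits near the 6 d libraries for miR-200a-3p to miR-200b-3p.

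mmu-miR-205-5p, the guide strand of its hairpin, was barely present at 0 h, with 11, 5 and 3 reads (2.68, 0.831 and 0.463 CPM). At 6 d it had 101, 35 and 114 reads (64.3, 46.3 and 103 CPM). The groups were far apart, and here 6 d replicate 3 was the highest. miR-205-5p rose by 5.0 ± 0.49 (log2, SE, n = 3 each, limma adjusted p = 8.8e-05). Its pooled level at 6 d was 63.6 times that at 0 h (exact 95% interval 39.9 to 107, counting error only). This miRNA passed the filter only through its 6 d libraries, so its call carries no weight of its own. The other arm, miR-205-3p, had 1 read at 0 h and 3 at 6 d, too few for a comparison.

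mmu-miR-203-3p, the most abundant member at 0 h, was the 1 tested member without a call. It had 320, 203.1 and 78.1 CPM in 0 h replicates 1, 2 and 3 (1315, 1221 and 506 reads) and 246, 93.9 and 127 CPM at 6 d (71 to 386 reads). The groups overlapped, with 0 h replicate 1 the highest and 0 h replicate 3 the lowest of all 6 libraries. Its log2 fold change was -0.26 ± 0.55 (SE, n = 3 each, limma adjusted p = 0.72) with a 95% interval of -1.49 to 0.97, which does not reach the lower bound of any family 3p arm. Its sign turned with library totals alone (0.19) and without 0 h replicate 1 (0.18) or 6 d replicate 2 (0.040). For each read of miR-205-5p, with 1 read added to both, there were 110, 204 and 127 reads of miR-203-3p at 0 h and 3.79, 2 and 1.23 at 6 d. This ratio of 2 miRNAs of stratified epithelia was chosen after its values were seen, and miR-205-5p passed the filter only through its 6 d libraries, so it is a description with no test. Its mean log2 value was 7.14 ± 0.47 at 0 h and 1.08 ± 0.81 in the 6 d libraries (SD, n = 3 each).

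In order of mean level at 0 h, miR-203-3p (200.4 ± 121 CPM, SD, n = 3) stood first, then miR-200c-3p (55.3 ± 19.8), miR-200b-3p (29.5 ± 17.5) and miR-200a-3p (9.55 ± 2.31). The other members averaged 3.0 CPM or less. The libraries overlapped between miR-200c-3p and miR-200b-3p and between miR-200b-3p and miR-200a-3p, but not between miR-203-3p and miR-200c-3p. Mature miRNAs are of nearly one length, here 22 or 23 bases, so reads were compared without a length correction. The orders given here are of reads, and whether different miRNAs yield reads equally well was not tested. At 6 d the order was miR-200a-3p (695 ± 275), miR-200b-3p (592 ± 238), miR-200c-3p (245 ± 34.2), miR-203-3p (156 ± 79.8), miR-205-5p (71.2 ± 28.9), miR-141-3p (57.7 ± 21.2), miR-429-3p (30.7 ± 2.53) and miR-200a-5p (23.8 ± 14.8). Neighbours in this order overlapped between libraries, except miR-200b-3p above miR-200c-3p and miR-141-3p above miR-429-3p. miR-200a-3p moved from rank 262 of the 984 miRNAs at 0 h to rank 61 at 6 d, and miR-205-5p from rank 433 to rank 148, while miR-203-3p had rank 105 and 116.

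Among the 6 d libraries, replicate 1 was the highest for 7 of the 9 tested members, against 38.1% of all 470 tested miRNAs, and replicate 3 for miR-429-3p and miR-205-5p. Whether the members differ from other miRNAs in this was not tested. The summed 3p arms of the family came to 117, 115 and 60.8 CPM at 0 h and to 2269, 1268 and 1326 at 6 d. The skeletal muscle, liver, erythrocyte and leukocyte lists also summed higher in every 6 d library than in any 0 h library. The leukocyte list had the order of the family, with 1164, 655 and 760 CPM in 6 d replicates 1, 2 and 3, and the first 3 lists had other orders. Replicate 1 was also the highest 6 d library for the cardiac muscle, endothelial, smooth muscle and mesenchymal sums. The counts of calls below stand beside 16.0% of all tested miRNAs higher and 21.9% lower. The skeletal muscle list (miR-206-3p and miR-133b-3p, 2 of 2 members called higher) summed to between 86.0 and 101 CPM at 0 h and to 1232, 1858 and 1035 in 6 d replicates 1, 2 and 3. The hepatocyte miRNA miR-122-5p had 702, 668 and 1406 CPM at 0 h and 2086, 23460 and 16716 at 6 d, so that it was lowest where the miR-200 family was highest. The erythrocyte list (miR-451a, miR-144-3p and miR-144-5p, 1 of 3 called higher) summed to between 11660 and 15280 CPM at 0 h and between 45270 and 95630 at 6 d. Nearly all of this sum was miR-451a, with means of 13526 CPM at 0 h and 69162 at 6 d. The mean of miR-144-3p was lower at 6 d (34.8 and 24.5 CPM) and that of miR-144-5p higher (126 and 182), both with overlapping groups. The sums of the cardiac muscle list were 256900 to 491600 CPM at 0 h and 113400 to 535900 at 6 d, with 1 of 5 members higher and 2 lower. Nearly all of this sum was miR-1a-3p, with means of 345220 CPM at 0 h and 317670 at 6 d, which was not called. The higher member was miR-133a-3p (means of 838 and 2270 CPM). The lower members were miR-208a-3p (202 and 79.2) and miR-499-5p (2841 and 983). Of 2 endothelial members 1 was lower, of 5 mesenchymal members 1 was lower, of 2 brain members tested 1 was lower, and of 2 smooth muscle and 5 leukocyte members 0 were called by limma. At an unadjusted limma p under 0.05 these were 0 and 3, and edgeR called 0 and 2. Of the mesenchymal members edgeR called 1 higher and 1 lower. The higher one was miR-199a-3p, with means of 3506 CPM at 0 h and 6316 at 6 d (limma adjusted p = 0.057, edgeR adjusted p = 0.039). The summed ranges at 0 h and 6 d were 56920 to 88650 and 25280 to 35080 CPM for endothelium, 75150 to 79580 and 27920 to 90470 for smooth muscle, 6834 to 7640 and 6869 to 12340 for mesenchyme, 471 to 627 at 0 h for leukocytes and 1829 to 4270 and 515 to 1932 for brain. No marker of these lists was at 0 in any library except the brain marker miR-124-3p, which had no read in 0 h replicate 1 and in 6 d replicates 1 and 2. The part of other tissues in the rise of the members was not tested. Depth also differed between the intervals, and its part was not tested.

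Other miRNAs known from epithelia or epithelial organs followed in part. Of 16 on the list 15 were tested, 7 rose and 1 fell (against 16.0% and 21.9% of all tested miRNAs), with a median log2 fold change of 1.12 against -0.33 over all tested miRNAs. By edgeR 7 of 14 rose and 2 fell, against 22.3% of all miRNAs it tested higher and 43.0% in either direction. The ciliated-airway miRNAs rose together, from 30.2 ± 5.58 to 276 ± 177 CPM for miR-34c-5p (SD, n = 3 each, log2 fold change 2.99, limma adjusted p = 0.00090), and by 2.11 and 3.12 on the log2 scale for miR-34b-5p and miR-449a-5p (limma adjusted p = 0.0084 and 0.0013). Like the summed 3p arms of the miR-200 family, miR-34c-5p was highest in 6 d replicate 1, with 481 CPM against 163 and 185. Among the 6 d libraries this held for 38.1% of all tested miRNAs. miR-449a-5p had 6, 5 and 0 reads at 0 h and passed the filter only through its 6 d libraries. Its call and its part in the counts of this list therefore carry no weight of their own. The endocrine miR-375-3p rose from 2.42 to 26.9 CPM (log2 fold change 3.01, limma adjusted p = 0.00072). Smaller rises were seen for miR-96-5p (1.56), miR-194-5p of gut and liver (1.51) and miR-224-5p (1.33), with limma adjusted p = 0.028, 0.014 and 0.035. Leaving out 0 h replicate 1 ended the call of miR-194-5p (adjusted p = 0.071), and those of miR-96-5p and miR-224-5p ended without 0 h replicate 2 (0.12 and 0.15), 0 h replicate 3 (0.058 and 0.082) or 6 d replicate 1 (0.076 and 0.084). The call of miR-224-5p also ended with no filter on low values (limma adjusted p = 0.068). miR-184-3p, a miRNA of cornea and lens, fell by 1.41 on the log2 scale (limma adjusted p = 0.024), from 29.8 to 11 CPM, a call that ended with library totals alone (adjusted p = 0.15) and without 0 h replicate 1 (0.089) or 0 h replicate 3 (0.079). The log2 fold changes of miR-183-5p (1.12) and miR-182-5p (0.11), which share a cluster with miR-96-5p, were not past the threshold, although miR-183-5p was called with RLE size factors (adjusted p = 0.049) and without 0 h replicate 1 (0.040). Nor were those of miR-192-5p (-0.32), miR-215-5p (-1.11), miR-31-5p (-1.86), miR-708-5p (-0.42) and miR-135b-5p (0.43), although miR-215-5p was called lower without 6 d replicate 1 (adjusted p = 0.042). miR-31-5p, which is abundant in epidermis, had 83.5, 76.0 and 12.2 CPM at 0 h and 8.27, 13.2 and 12.6 at 6 d, so that only 0 h replicate 3 lay within the 6 d range. Its limma adjusted p was 0.054, and it was called lower without 0 h replicate 3 (log2 fold change -2.73, adjusted p = 0.0020), with recomputed TMM factors (0.045), with the replicate block (0.0090), by edgeR (-2.12, adjusted p = 0.019) and by DESeq2 (-2.12, adjusted p = 0.010).

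Over the 6 libraries, the profiles most like the summed 3p arms of the family were those of miR-669c-5p, miR-20b-5p, miR-34c-5p, miR-375-3p, miR-363-3p and miR-451a, among 267 other miRNAs with a mean of at least 10 CPM. miR-669c-5p, miR-20b-5p, miR-375-3p and miR-363-3p averaged less than 10 CPM at 0 h and met this mean only through their 6 d libraries. Their likeness is therefore partly set by that filter, and it is a description with no test. Likeness was measured as the root-mean-square difference between the centred log2(CPM + 1) profiles, which was 0.55 for miR-669c-5p and 0.99 for miR-451a. For the 3p arms in that sum the same measure was 0.35 for miR-200b-3p, 0.60 for miR-141-3p, 0.67 for miR-429-3p, 0.96 for miR-200c-3p and 1.04 for miR-200a-3p, so that miR-200a-3p lay farther from the sum than all 6 of these other miRNAs. It was 0.70 for miR-205-5p, 0.95 for miR-200a-5p, 1.33 for miR-200b-5p and 2.18 for miR-203-3p. miR-669c-5p had 2.81 ± 0.762 CPM (SD, n = 3) at 0 h and 39.8 ± 14.5 at 6 d, and miR-20b-5p 2.56 ± 0.633 and 44.6 ± 31.9. The 6 points of each profile share the 2 intervals and the depth of the libraries. The G and C content of the members was 36.4% to 54.5% with a median of 43.5%, and the middle 50% of the 407 tested miRNAs with a RefSeq sequence (86.6% of 470) lay between 40.9% and 54.5%. Across those miRNAs, which are not independent replicates, G and C content and log2 fold change had a Spearman correlation of -0.17 and a Pearson correlation of -0.04.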

How the data were processed

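Trizol extraction and a NEBNext kit for small RNA libraries are named per the labels' protocols. The submitters' processing notes list STAR 2.5.3a, cutadapt 2.8, Trimmomatic 0.39 and FastQC without saying what each did. Which build, annotation and counting tool served is not given in the sources used here. For 0 h replicate 1 the deposited values are raw counts, and the other 5 deposited files hold log2(x + 1) values with 3 decimals, where x is reads scaled per library. The values x were whole multiples of 1 step per library for 2692 of the 2692 nonzero values where rounding (0.0005 on the log2 scale) allowed a test, up to 693 to 714 reads. This was taken as 1 read. The counts of 0 h replicate 1 were divided by a factor of 0.919, chosen so that the 6 library factors multiply to 1. That choice is an assumption, since no source states the authors' factor. Blank rows (1604 per file) held no value.

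limma 3.58.1 (R 4.3.3, trended prior, robust) was run on log2(normalised CPM + 1) over 470 miRNAs, with Benjamini-Hochberg adjustment over all of them. The 514 left out held 0.0114% of the reads. Arm ratios used limma without the trend over 116 precursors. Ratios between members used exact permutation tests over libraries, whose smallest p is 0.1, adjusted over 5 ratios. edgeR 4.0.16 and DESeq2 1.42.0 on recovered reads were alternatives. The tests across miRNAs were tested on simulated data. The exact intervals of shares (Clopper-Pearson) and pooled ratios (Poisson) cover counting error only, and reads carry no molecular identifiers. Intervals of log2 fold changes and arm ratios come from limma and rest on the spread among libraries. Members, lists, tests and the rule for named miRNAs were chosen with earlier results of these data known. The rule named every member, each tested miRNA of the epithelial list, the 6 most alike profiles and at most 2 markers per list. Further markers are given for the erythrocyte and cardiac muscle lists, whose sums were nearly all miR-451a and miR-1a-3p.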

Additional observations from a re-analysis of the deposited data

How the results depend on the processing

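The 8 called members kept their direction in every setting that tested them, and only miR-200b-5p lost its call, when 0 h replicate 1 or 2 was left out. It was not tested by edgeR, with a filter of 10 CPM or without any 1 of the 6 d libraries. The calls of miR-200b-5p, miR-429-3p and miR-205-5p carry no weight of their own, since these passed the filter only through their 6 d libraries. The log2 fold change ranged from 5.63 to 6.43 for miR-200a-3p, 3.86 to 4.86 for miR-200b-3p, 1.90 to 2.64 for miR-200c-3p and 3.22 to 4.76 for miR-141-3p, and from 3.77 (pseudocount 4) to 6.07 (DESeq2) for miR-205-5p. Leaving out single libraries gave 114 to 179 calls in place of 178, the fewest without 0 h replicate 1, and moved the 103 lower calls from 58 (without 0 h replicate 1; 68 without 0 h replicate 2) to 108, with 40 by library totals alone. The 45 arm ratio calls ranged from 16 to 45 with 1 library left out (16 without 0 h replicate 1, 23 without 0 h replicate 2, 26 without 0 h replicate 3), and were 27 of 53 when each arm had to average 10 CPM, which leaves fewer precursors. The miR-200a arm ratio was called in every setting (-3.45 to -2.99). The cluster difference of 2.55 lay between 1.91 (without miR-200a-3p) and 2.82, and the seed difference between -3.01 and -1.65. The difference of miR-429-3p to miR-200b-3p ranged from -0.15 to 2.11 and that of the miR-200b arms from -1.56 to 0.29 with 1 library left out.

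Signs turned for uncalled values near 0. miR-203-3p had 0.19 with library totals alone and -0.83 to 0.18 with 1 library left out. miR-182-5p had -0.30 with edgeR, -0.29 with DESeq2 and, with 1 library left out, -0.42 to 1.05. miR-192-5p had 0.14 with library totals alone, 0.0079 with DESeq2 and -0.68 to 0.087 with 1 library left out. miR-1a-3p had 0.13 with library totals alone, 0.079 with DESeq2 and -0.84 to 0.30 with 1 library left out. With 1 library left out, miR-135b-5p ranged from -0.39 to 1.13 and miR-708-5p from -0.86 to 0.13. The cause was not tested. With the replicate block 195 miRNAs were called, with the same 8 members among them, and 79 were higher. Libraries with the same number had deviations from their group means that correlated at 0.07, 0.06 and 0.27, and no pairing was assumed. The ratio of miR-203-3p to miR-205-5p was added after the data were seen and not tested. Depth limits miR-429-3p, miR-205-5p and the 5p arms at 0 h, where 3 reads correspond to 0.463 to 0.730 CPM.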
